A study of Mus musculus with 18 samples.

Results

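The 44 genes described here are the stromal, pericyte and extracellular matrix genes of isolated mouse islets, a set of collagens, basement membrane and microfibril proteins, proteoglycans, matricellular proteins, pericyte and smooth muscle genes, fibroblast surface genes and matrix-remodelling enzymes. They were taken by gene symbol from a list that was put together with earlier results of these data known, and all 44 were among the 24346 genes listed in each table. RNA of islets isolated from C57BL/6 mice was sequenced in 18 libraries, 3 in each of 6 groups. In 3 groups the islets were labelled as having exon 2 of Cdh13 deleted. They were taken at 14 weeks of age after 6 weeks of high-fat diet, or on normal chow at 14 or 8 weeks. Exon 2 was floxed, that is, flanked by loxP sites and not deleted, in the other 3 groups, taken at 14 weeks after 6 weeks of high-fat diet, at 14 weeks on chow and at 8 weeks on chow. Cdh13 encodes T-cadherin, a cadherin anchored to the membrane by a lipid that binds adiponectin and is best known in the vessel wall. The labels do not give the Cre driver or the tissues in which the exon was removed, nor whether a library came from 1 animal or from several. The replicates are numbered but not described further, so p-values measure the spread between these libraries, which may be in part technical.

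Islets are threaded by a dense network of fenestrated capillaries. The endothelial cells and the beta cells that touch them share a vascular basement membrane of type IV collagen and laminin, and pericytes, recruited by PDGF-B through the receptor Pdgfrb, sit on the capillary wall. Fibrillar collagens and their small proteoglycans lie in the capsule around the islet and along larger vessels and are made mostly by fibroblasts, stellate cells and other perivascular cells, so the level of these genes in an islet preparation depends on how much of such tissue comes with the islets as well as on the activity of the cells.

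The starts of 5 members are shown, from RefSeq on GRCm38.p6, each as 300 bases running 5′ to 3′ on the gene's own strand, from 250 bases before the start site in the RefSeq promoter table to 50 after it. For Col4a1 and Acta2 that site lies 63 and 212 bases inside the gene span listed by RefSeq, and for the other 3 it is the first base of the span. The first pair is shown because Col4a1 and Col4a2, which encode the 2 chains of the commonest type IV collagen, start head to head. Their windows are chr8:11312777-11313076 on the minus strand for Col4a1 and chr8:11312555-11312854 on the plus strand for Col4a2, and the capitals mark the 78 bases that both windows hold, from 11312777 to 11312854.
Col4a1: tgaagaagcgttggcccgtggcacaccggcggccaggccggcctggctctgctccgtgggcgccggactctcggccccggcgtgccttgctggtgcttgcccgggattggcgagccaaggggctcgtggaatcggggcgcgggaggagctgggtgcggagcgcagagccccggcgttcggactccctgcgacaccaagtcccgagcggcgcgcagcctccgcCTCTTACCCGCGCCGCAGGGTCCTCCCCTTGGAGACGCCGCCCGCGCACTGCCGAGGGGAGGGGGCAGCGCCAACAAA
Col4a2: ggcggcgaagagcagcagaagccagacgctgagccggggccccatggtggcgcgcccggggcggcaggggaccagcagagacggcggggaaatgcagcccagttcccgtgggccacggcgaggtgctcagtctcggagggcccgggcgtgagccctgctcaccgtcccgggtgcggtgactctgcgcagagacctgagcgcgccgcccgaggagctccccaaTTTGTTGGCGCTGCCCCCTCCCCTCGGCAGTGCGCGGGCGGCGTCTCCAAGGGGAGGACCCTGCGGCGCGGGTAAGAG

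The other 3 are members that were lower on high-fat diet in floxed islets, chosen after their values were seen. They are Cyr61 (chr3:145649936-145650235, minus strand), Acta2 (chr19:34255324-34255623, minus strand) and Col3a1 (chr1:45311288-45311587, plus strand). The capitals mark GGAATG or its reverse complement CATTCC, the core of the sequence that TEAD factors, the DNA-binding partners of YAP, are known to bind. The first base of the match lay at -103 from the start site of the window in Cyr61, at -146 in Acta2 and at -168 in Col3a1.
Cyr61: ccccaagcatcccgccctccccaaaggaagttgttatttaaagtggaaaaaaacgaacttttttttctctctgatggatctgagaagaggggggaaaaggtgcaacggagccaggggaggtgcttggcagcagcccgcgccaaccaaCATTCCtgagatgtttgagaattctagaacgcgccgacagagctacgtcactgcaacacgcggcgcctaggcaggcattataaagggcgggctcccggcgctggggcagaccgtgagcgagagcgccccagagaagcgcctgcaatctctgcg
Acta2: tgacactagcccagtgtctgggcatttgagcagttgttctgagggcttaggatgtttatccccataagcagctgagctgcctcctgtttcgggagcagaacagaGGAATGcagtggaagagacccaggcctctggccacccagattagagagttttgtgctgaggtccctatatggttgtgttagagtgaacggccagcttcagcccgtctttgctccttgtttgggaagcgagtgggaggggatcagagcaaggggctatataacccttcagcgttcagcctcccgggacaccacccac
Col3a1: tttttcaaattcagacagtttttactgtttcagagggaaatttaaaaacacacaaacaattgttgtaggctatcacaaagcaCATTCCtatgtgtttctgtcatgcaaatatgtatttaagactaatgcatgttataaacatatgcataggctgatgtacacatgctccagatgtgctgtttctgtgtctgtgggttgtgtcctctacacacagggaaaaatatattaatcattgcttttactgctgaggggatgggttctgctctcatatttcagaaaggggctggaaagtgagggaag

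Of the 44 members, 27 had such windows, 31 in all. Of these, 8 of 31 windows (25.8%) held GGAATG or CATTCC on either strand, against 4817 of 32851 mouse windows of the same length (14.7%), and no test was made of the difference. The 8 windows were those of Col3a1, Cyr61, Mfap2, Col6a2, Col18a1, Nid1, Acta2 and Timp1. A match describes letters in a window and does not show that a factor binds there.

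Expression was given in FPKM, sequenced fragments scaled to transcript length and library size, so levels can be set side by side between genes. The summed FPKM of a library lay between 903346 and 1394009, and the number of fragments behind it is unknown. Between 11474 and 11787 genes reached 1 FPKM in a library. Cdh13 was lower in every library labelled deleted (0.247 to 0.809 FPKM) than in every library labelled floxed (1.08 to 2.06 FPKM). Libraries of 1 group correlated at 0.981 to 0.991 across genes. One library of each group held the highest value of many members, namely deleted 14-week chow replicate 1 (37 of 44), floxed high-fat diet replicate 3 (35), floxed 8-week chow replicate 2 (33) and floxed 14-week chow replicate 2 (31), against 21 and 20 in the deleted high-fat diet and deleted 8-week groups. Calls of members that ended without 1 of the first 4 libraries are given beside the results with their values.

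The members together made up 0.0187 to 0.0424% of the summed FPKM of a library. Mgp, which encodes matrix Gla protein, an inhibitor of calcification, had the highest mean over the 18 libraries at 132 FPKM, with a range of 56.4 to 240.0 FPKM. It was followed by Sparc, which encodes a collagen-binding matricellular protein (50.6 FPKM, 32.1 to 75.1), Ctgf (16.8 FPKM), Col4a1 (11.996 FPKM) and Timp3 (9.21 FPKM). The defining genes of fibroblasts were low: Pdgfra averaged 0.170 FPKM and Thy1 0.135 FPKM. Of the pericyte genes, Pdgfrb and Kcnj8 were detected at several FPKM, while Rgs5 averaged 0.761 FPKM and reached 2.09 FPKM in a single library.

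Differences were tested on log2(FPKM + 1) for the 12234 genes that reached 1 FPKM in 3 or more of the 18 libraries, a limit that kept 35 of the 44 members. The 9 members below this limit were Col15a1, Hspg2, Mfap4, Fn1, Rgs5, Cspg4, Pdgfra, Thy1 and Loxl1. Nearest to it from below was Rgs5, with 2 libraries at 1 FPKM or more, and nearest from above were Fbn1, Mmp2 and Col6a3, with 5 libraries each. A gene was called at a Benjamini-Hochberg adjusted p below 0.05 in limma, adjusted over the 12234 genes. Counts of members below are out of all 44, also where libraries do not overlap. They include the 9 that could not be called, whereas shares are over the 12234 tested genes. A difference on the log2(FPKM + 1) scale understates the change of genes near or below 1 FPKM, which include many members. In bulk RNA, fewer cells of a type and less RNA per cell cannot be told apart.

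**Figure D1:**
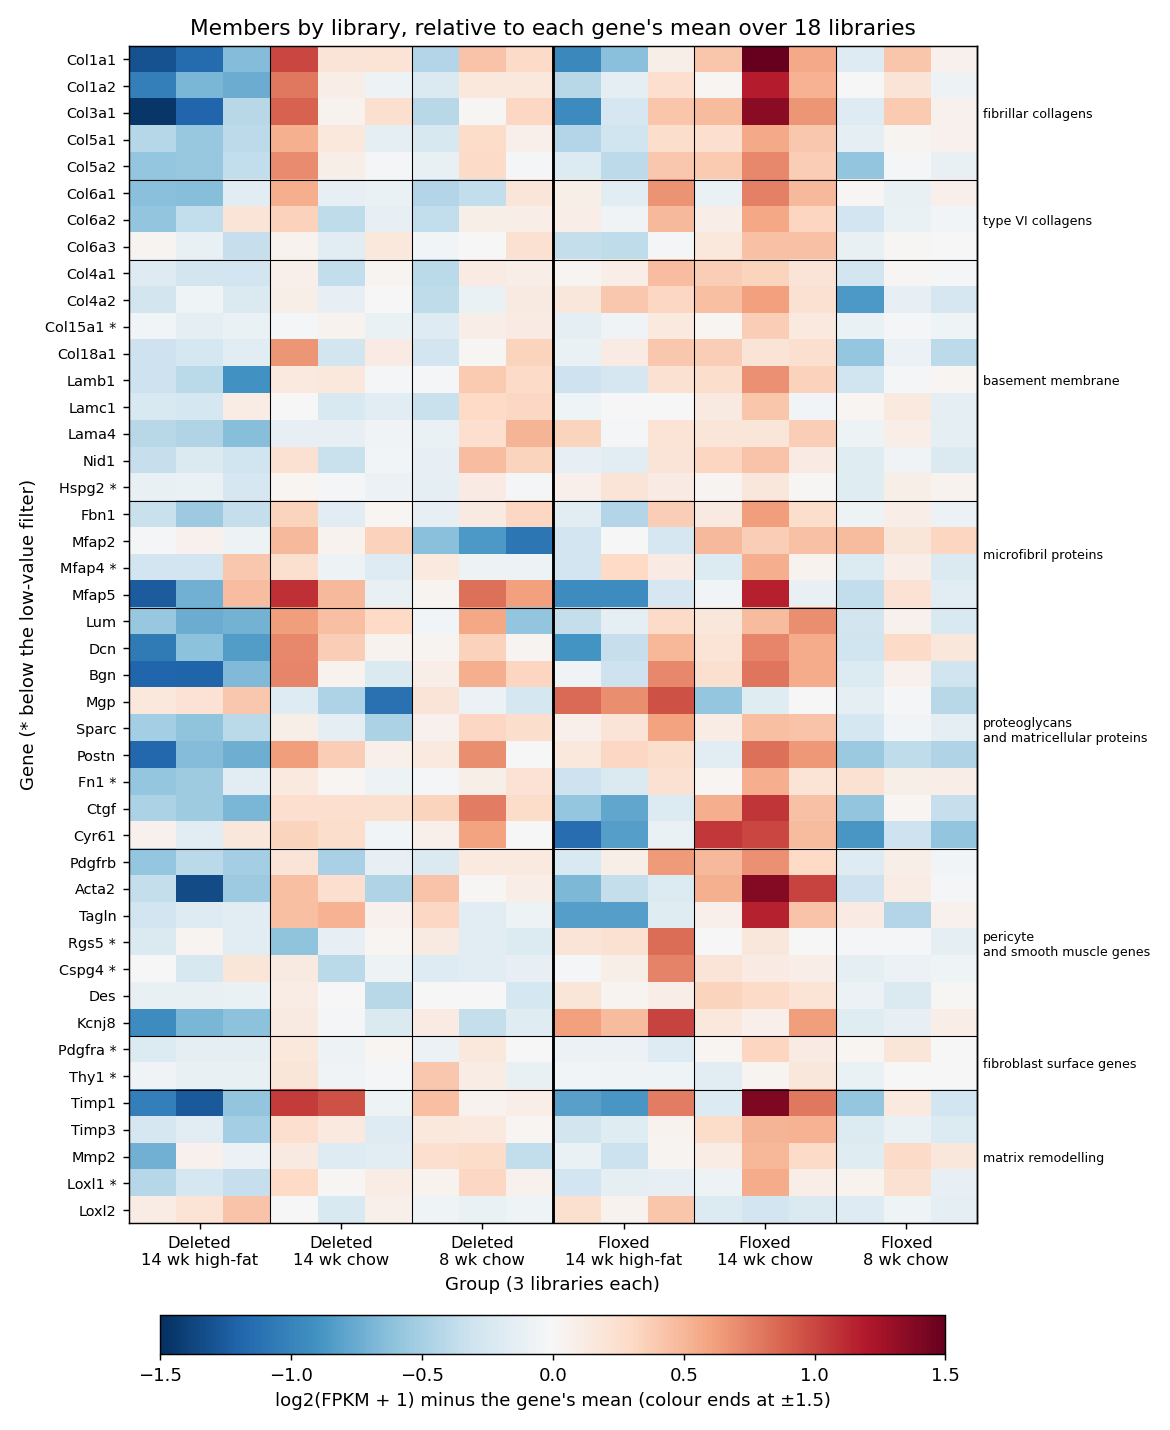
Colour gives log2(FPKM + 1) of each of the 44 members (rows, by role; an asterisk marks a gene below the low-value limit) in each of the 18 libraries (columns, 3 for each group), minus the gene's mean over the 18 libraries. The deleted high-fat diet libraries are low for most rows, Mgp stands out as high on high-fat diet in both genotypes, and Mfap2 is low in the 3 deleted 8-week libraries.

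High-fat diet was compared with chow at 14 weeks within each genotype. In deleted islets 15 of 44 members were lower and 1 was higher on high-fat diet, where 5.91% of all tested genes were called lower and 9.05% higher. In floxed islets 11 members were lower and 2 were higher, where 13.5% of all tested genes were called lower and 15.0% higher. The median difference over the 44 members was -0.39 in deleted and -0.34 in floxed islets, against 0.00 and -0.01 over all tested genes. In deleted islets 22 members had all 3 high-fat diet libraries below all 3 chow libraries, against 16.3% of all tested genes. In floxed islets 15 members did so, against 21.5% of all tested genes.

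The fibrillar collagens, the rope-like collagens of interstitial tissue, were low on high-fat diet in both genotypes. All 5 (Col1a1, Col1a2, Col3a1, Col5a1 and Col5a2) fell in deleted islets, and Col1a1, Col3a1 and Col5a1 fell in floxed islets. Col1a1, the main chain of type I collagen, had 0.345, 0.490 and 1.11 FPKM on high-fat diet in deleted islets, against 5.65, 2.80 and 2.83 FPKM on chow. In floxed islets it had 0.691, 1.14 and 2.54 FPKM on high-fat diet, against 3.42, 9.44 and 3.93 FPKM on chow. The diets did not overlap in either genotype. The difference was -1.51 (SE 0.364, adjusted p 0.0122) in deleted and -1.38 (SE 0.364, adjusted p 0.0114) in floxed islets. Col3a1, type III collagen, had 0.602, 0.931 and 2.30 FPKM on high-fat diet in deleted islets, against 7.16, 3.59 and 4.22 FPKM on chow. Floxed islets had 1.28, 2.70 and 4.88 FPKM on high-fat diet, against 5.10, 10.2 and 5.98 FPKM on chow. The Col3a1 difference was -1.42 (adjusted p 0.0189) in deleted and -1.09 (adjusted p 0.0404) in floxed islets. Col1a2, the partner chain of Col1a1, fell to 26.1% of its chow mean in deleted islets (difference -1.09, adjusted p 0.00707).

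In deleted islets the call of Col1a2 held in every alternative run. Those of Col1a1, Col3a1, Col5a1 and Col5a2 each ended without chow replicate 1, where these genes were highest, and without high-fat diet replicate 2. In floxed islets the call of Col1a1 ended without high-fat diet replicate 1 and when the 2 floxed 14-week groups were fitted alone, that of Col3a1 ended in 10 of 24 alternatives, and that of Col5a1, a chain of the type V collagen that regulates fibril width, ended in 4 of 24.

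Type VI collagen forms beaded filaments around cells. Of its 3 chains, Col6a3 fell in floxed islets, with 0.483, 0.463 and 0.871 FPKM on high-fat diet against 1.12, 1.57 and 1.56 FPKM on chow (difference -0.59, adjusted p 0.00480). Col6a1 differed by -0.58 (adjusted p 0.122) in deleted and -0.18 (adjusted p 0.623) in floxed islets. Of the 9 basement membrane members, Lamb1, the laminin beta 1 chain, was the one called, at -0.64 (adjusted p 0.0152) in deleted and -0.54 (adjusted p 0.0217) in floxed islets. The Lamb1 call ended in 2 of 24 alternatives in deleted and in 3 of 24 in floxed islets. Col4a1 differed by -0.17 (adjusted p 0.486) in deleted and -0.10 (adjusted p 0.629) in floxed islets. Col4a2 differed by -0.17 (adjusted p 0.532) and -0.14 (adjusted p 0.560) in the same order.

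Small proteoglycans and matricellular proteins included the members called with the smallest p-values in deleted islets. Postn encodes periostin, a matricellular protein of tissue under repair or load. It had 0.243, 0.795 and 0.690 FPKM on high-fat diet in deleted islets, against 3.35, 2.65 and 1.97 FPKM on chow. That was 21.7% of the chow mean (difference -1.21, SE 0.221, adjusted p 0.00111), with no overlap. In floxed islets Postn overlapped between diets, with 2.14, 2.50 and 2.38 FPKM on high-fat diet against 1.53, 4.02 and 3.41 FPKM on chow (difference -0.20, adjusted p 0.542). Lum, Dcn and Bgn encode lumican, decorin and biglycan, small leucine-rich proteoglycans that bind collagen fibrils. They fell in deleted islets to 13.1%, 31.7% and 36.5% of their chow means (adjusted p 0.00209, 0.00728 and 0.00850). In floxed islets none of the 3 was called. Lum differed there by -0.52, Dcn by -0.74 and Bgn by -0.41 (adjusted p 0.286 for Bgn). The diet differences in deleted minus floxed islets were -0.61 for Lum, -0.48 for Dcn and -0.79 for Bgn. None of these was called as an interaction.

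Ctgf and Cyr61 encode the secreted matricellular proteins CCN2 and CCN1, whose genes are known targets of YAP and TAZ. Ctgf had 10.9, 10.4 and 9.35 FPKM on high-fat diet in deleted islets, against 18.7, 18.7 and 18.6 FPKM on chow. Floxed islets had 10.1, 8.67 and 13.3 FPKM on high-fat diet, against 23.2, 33.8 and 21.5 FPKM on chow. It fell in both genotypes, by 0.81 (adjusted p 0.00548) in deleted and by 1.21 (adjusted p 0.000117) in floxed islets. Cyr61 had 5.87, 4.91 and 6.40 FPKM on high-fat diet in deleted islets, against 7.31, 6.93 and 5.42 FPKM on chow. In floxed islets it had 1.99, 2.70 and 5.14 FPKM on high-fat diet, against 12.7, 12.2 and 8.17 FPKM on chow. Its diets overlapped in deleted islets (difference -0.16, adjusted p 0.702) and were apart in floxed islets (difference -1.54, SE 0.237, adjusted p 0.000193). About 22.9% of the exon bases of Ctgf are shared with an annotated gene on the other strand, and the preparation does not mark the strand.

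Mgp was higher on high-fat diet in both genotypes. It had 139, 144 and 164 FPKM on high-fat diet in deleted islets, against 108, 89.5 and 56.4 FPKM on chow. Floxed islets had 224, 201 and 240.0 FPKM on high-fat diet, against 82.4, 109 and 124 FPKM on chow. It rose by 0.86 (SE 0.210, adjusted p 0.0141) in deleted and by 1.09 (SE 0.210, adjusted p 0.00183) in floxed islets. The deleted call ended without high-fat diet replicate 3, and when the 2 deleted 14-week groups were fitted alone. Loxl2, a lysyl oxidase that crosslinks collagen, was the other member that rose, in floxed islets, with 6.23, 5.38 and 7.19 FPKM on high-fat diet against 4.34, 4.04 and 4.26 FPKM on chow (difference 0.47, adjusted p 0.00299).

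Among the contractile genes, Acta2, smooth muscle actin, had 1.53, 0.279 and 1.22 FPKM on high-fat diet in deleted islets, against 3.41, 2.84 and 1.37 FPKM on chow. In floxed islets it had 1.03, 1.53 and 1.80 FPKM on high-fat diet, against 3.67, 7.39 and 5.53 FPKM on chow. The floxed difference (-1.39, adjusted p 0.000959) held in every alternative. The deleted one (-0.83, adjusted p 0.0433, with overlapping diets) became -0.53 (adjusted p 0.200) without high-fat diet replicate 2, and its call ended in 14 of 24 alternatives. Tagln, which encodes the actin-binding transgelin, fell in floxed islets to 24.0% of its chow mean (difference -1.16, adjusted p 0.00127), although 55.0% of its exon bases lie under an annotated gene on the other strand. Kcnj8, a potassium channel subunit of pericytes, had 1.17, 1.59 and 1.71 FPKM on high-fat diet in deleted islets, against 3.56, 3.12 and 2.57 FPKM on chow. In floxed islets it had 5.37, 4.77 and 7.37 FPKM on high-fat diet, against 3.65, 3.39 and 5.45 FPKM on chow. The diets were apart in deleted islets (difference -0.71, adjusted p 0.00635) and overlapped in floxed islets (difference 0.41, adjusted p 0.0732). Pdgfrb differed by -0.36 (adjusted p 0.219) in deleted and -0.32 (adjusted p 0.210) in floxed islets. Pdgfra, below the limit, differed by -0.20 in deleted and -0.28 in floxed islets.

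The remaining called members were Mfap2 in floxed islets (difference -0.61, adjusted p 0.00142), which encodes a microfibril-associated glycoprotein, and 2 inhibitors of metalloproteinases. Timp3, which binds to the matrix, fell by 0.38 (adjusted p 0.0379) in deleted and by 0.57 (adjusted p 0.00143) in floxed islets. Timp1, which is secreted, fell in deleted islets to 3.09 ± 0.999 FPKM on high-fat diet, against 11.9 ± 4.79 FPKM on chow (SD, n = 3 each; adjusted p 0.0447 in limma). In deleted islets the Timp1 call ended in 13 of 25 alternatives and the Timp3 call in 6 of 25. Sparc was not called for the diet (difference -0.33 in deleted and -0.04 in floxed islets). Mfap2 was not called in deleted islets (difference -0.31).

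The number of members called in floxed islets was 21 without high-fat diet replicate 3, and in deleted islets it was 8 without chow replicate 1 and 10 without high-fat diet replicate 2. Without chow replicate 1, the deleted calls that ended were those of Col1a1 (difference -1.24, adjusted p 0.0553), Col3a1 (-1.17, adjusted p 0.0769), Col5a1 (-0.48, adjusted p 0.139), Col5a2 (-0.54, adjusted p 0.116), Lamb1 (-0.61, adjusted p 0.0545), Acta2 (-0.65, adjusted p 0.169), Timp1 (-1.40, adjusted p 0.141) and Timp3 (-0.28, adjusted p 0.176). Without chow replicate 2, the floxed calls that ended were those of Col3a1 (-0.83, adjusted p 0.151), Col5a1 (-0.48, adjusted p 0.117) and Lamb1 (-0.42, adjusted p 0.115). Through the shared estimate of the spread, the deleted Acta2 call also ended without floxed high-fat diet replicate 3 (adjusted p 0.0505) or floxed 8-week replicate 2 (adjusted p 0.0521), and the deleted Timp1 call without the last of these (adjusted p 0.0528). Markers of other cell types moved with the diet as well, as set out further on.

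**Figure D2:**
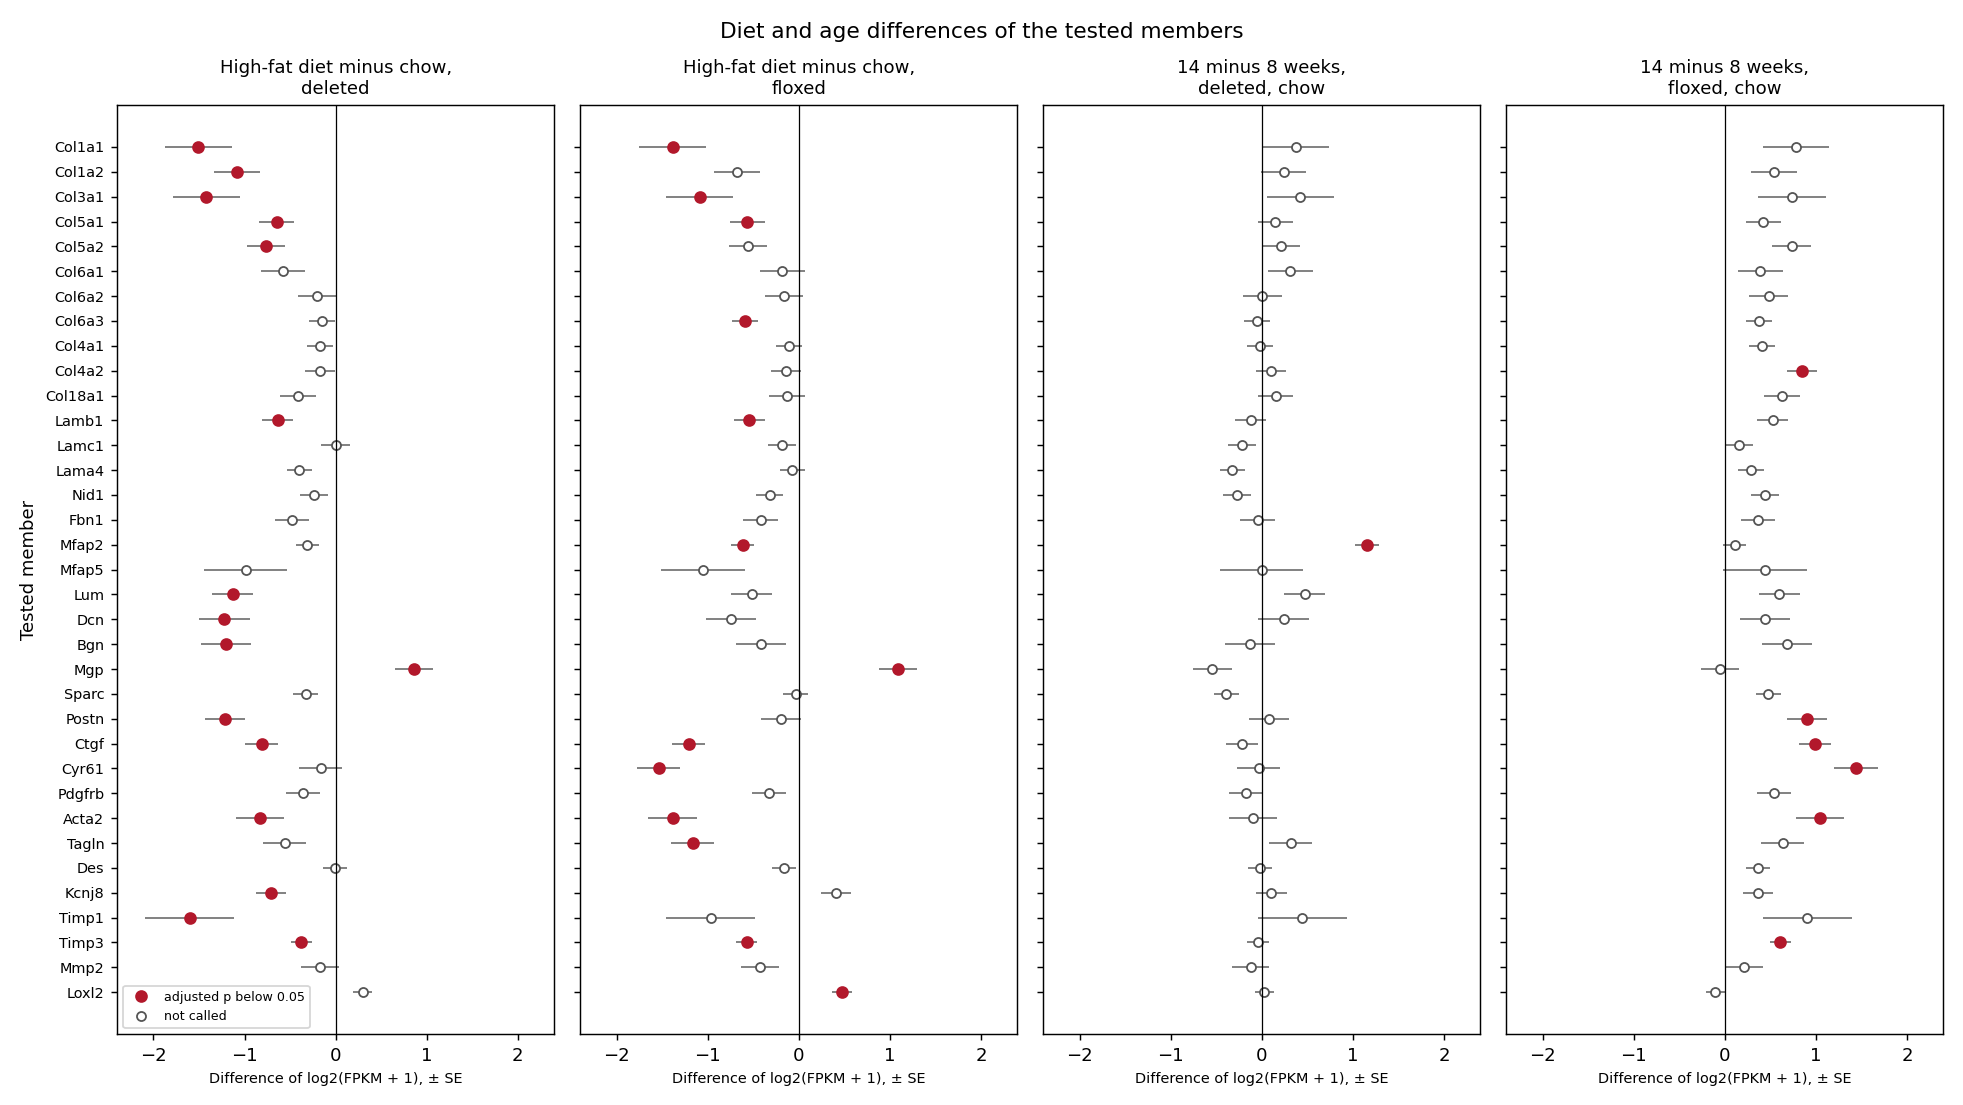
Points give the difference of log2(FPKM + 1) for each of the 35 tested members with its standard error, filled where the adjusted p was below 0.05, for high-fat diet minus chow in deleted and floxed islets and for 14 minus 8 weeks in deleted and floxed islets. Diet differences lie mostly below 0 in both genotypes, age differences in floxed islets lie mostly above 0, and those in deleted islets scatter around 0.

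Genotypes were compared within each condition, which sets islets labelled deleted against floxed islets of the same age and diet. On high-fat diet 6 of 44 members were lower in deleted islets and 0 were higher, where 6.02% of all tested genes were called lower. The 6 were Kcnj8, Sparc, Postn, Lama4, Bgn and Pdgfrb. The median difference of the 44 members was -0.33, against 0.01 over all tested genes, and 38 of the 44 differences were below 0. In 18 members all 3 deleted libraries lay below all 3 floxed libraries, against 15.2% of all tested genes. These comparisons share the high-fat diet libraries with those of the diet given above.

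Kcnj8 had 1.17, 1.59 and 1.71 FPKM in deleted islets on high-fat diet, against 5.37, 4.77 and 7.37 FPKM in floxed islets. The deleted values were all below the floxed ones and reached 25.5% of their mean (difference -1.45, SE 0.166, adjusted p 1.41e-05). Pdgfrb, the receptor that pericytes need for recruitment, had 2.36, 2.79 and 2.51 FPKM in deleted islets, against 3.28, 4.32 and 6.83 FPKM in floxed islets. Its groups did not overlap (difference -0.67, SE 0.187, adjusted p 0.0261), but without floxed replicate 3 the difference was -0.43 (adjusted p 0.160). Of the other pericyte and smooth muscle members, Rgs5, a regulator of G protein signalling and a pericyte marker below the low-value limit, had 0.482, 0.777 and 0.539 FPKM in deleted islets against 0.967, 1.02 and 2.09 FPKM in floxed islets. Acta2 differed by -0.33 (adjusted p 0.466) and Tagln by 0.40 (adjusted p 0.313).

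Sparc had 34.3, 32.1 and 36.8 FPKM in deleted islets on high-fat diet, against 52.0, 56.5 and 75.1 FPKM in floxed islets. The groups were apart, at 56.2% of the floxed mean (difference -0.80, SE 0.140, adjusted p 0.00137). Postn had 0.243, 0.795 and 0.690 FPKM in deleted islets, against 2.14, 2.50 and 2.38 FPKM in floxed islets. That was 24.6% of the floxed mean (difference -1.10, SE 0.221, adjusted p 0.00300). Bgn had 3.07, 3.06 and 4.88 FPKM in deleted islets, against 7.99, 6.50 and 14.4 FPKM in floxed islets (difference -1.14, adjusted p 0.0158). The Bgn call ended without deleted replicate 1, deleted replicate 2 or floxed replicate 3 (-0.84 and adjusted p 0.0531 without the last), whereas those of Kcnj8, Sparc, Postn and Lama4 held in every alternative.

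Lama4 encodes the laminin alpha 4 chain of vascular basement membranes. It had 1.39, 1.33 and 1.04 FPKM in deleted islets, against 3.03, 2.15 and 2.67 FPKM in floxed islets (difference -0.68, SE 0.139, adjusted p 0.00325). The type IV collagen pair was apart between the genotypes but was not called. Col4a1 had 10.2, 9.59 and 9.51 FPKM in deleted islets, against 12.1, 12.7 and 16.6 FPKM in floxed islets (difference -0.45, adjusted p 0.0504). Col4a2 had 3.11, 3.76 and 3.32 FPKM in deleted islets, against 4.61, 5.64 and 5.18 FPKM in floxed islets (difference -0.48, adjusted p 0.0615). Neither the fibrillar nor the type VI collagens had a called member here, and Col1a1 differed by -0.53 (adjusted p 0.392), Col3a1 by -0.76 (adjusted p 0.215) and Col6a1 by -0.67 (adjusted p 0.0855). Mfap2 differed by 0.16 (adjusted p 0.452), and Pdgfra by -0.04.

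On chow at 14 weeks 0 of 44 members were called by limma, where 0.114% of all tested genes were called. Values still leaned one way. The median difference was -0.29, against 0.00 over all tested genes, and 40 of the 44 differences were below 0. In 12 members the deleted libraries were all below the floxed ones, against 7.36% of all tested genes. The 12 were Col6a3, Col4a1, Col4a2, Lamb1, Lama4, Sparc, Ctgf, Cyr61, Pdgfrb, Acta2, Timp3 and Des, which encodes the muscle intermediate filament desmin. The 3 smallest p-values were those of Sparc (52.4, 44.2 and 35.1 FPKM in deleted islets against 53.0, 67.4 and 66.5 FPKM in floxed islets; difference -0.50, adjusted p 0.212), Pdgfrb and Acta2. Pdgfrb had 4.71, 2.57 and 3.58 FPKM in deleted islets, against 6.03, 7.03 and 5.18 FPKM in floxed islets (difference -0.63, adjusted p 0.236). Acta2 differed by -0.89 (adjusted p 0.248). Col4a1 differed by -0.38 (adjusted p 0.399), Col4a2 by -0.45 (adjusted p 0.375), Col1a1 by -0.41 (adjusted p 0.929), Col3a1 by -0.43 (adjusted p 0.927), Col6a1 by -0.28 (adjusted p 0.929), Mfap2 by -0.14 (adjusted p 0.930) and Pdgfra by -0.12.

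On chow at 8 weeks a single member was called. Mfap2 was lower in deleted islets, where 0.368% of all tested genes were called lower. It had 2.51, 1.99 and 1.57 FPKM in deleted islets, against 6.58, 5.15 and 5.79 FPKM in floxed islets. The groups were far apart, at 34.7% of the floxed mean (difference -1.18, SE 0.127, adjusted p 4.13e-05), and the call held in every alternative that kept Mfap2. Other members leaned the other way at this age, with 33 of 44 differences above 0 and a median of 0.09, against -0.01 over all tested genes. In 6 members (Bgn, Sparc, Postn, Ctgf, Cyr61 and Timp3) the deleted libraries were all above the floxed ones, against 7.19% of all tested genes, and none of the 6 was called. Ctgf had 19.9, 27.3 and 19.1 FPKM in deleted islets, against 10.03, 15.9 and 12.002 FPKM in floxed islets (difference 0.76, adjusted p 0.0642). Cyr61 had 5.96, 9.01 and 5.54 FPKM in deleted islets, against 2.58, 4.29 and 3.38 FPKM in floxed islets (difference 0.82, adjusted p 0.133). Sparc had 51.6, 61.2 and 59.0 FPKM in deleted islets, against 40.8, 47.7 and 44.5 FPKM in floxed islets (difference 0.36, adjusted p 0.275). Col1a1 had a mean of 2.66 FPKM in deleted and 2.60 FPKM in floxed islets. Col3a1 differed by -0.11 (adjusted p 0.940), Col4a1 by 0.04 (adjusted p 0.940), Col4a2 by 0.30 (adjusted p 0.476), Col6a1 by -0.20 (adjusted p 0.795), Pdgfrb by 0.08 (adjusted p 0.918) and Pdgfra by -0.05.

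Averaged over the 3 conditions, 4 members were lower in deleted islets and 0 were higher, where 2.39% of all tested genes were called lower. Kcnj8 differed by -0.61 (SE 0.0959, adjusted p 0.00108), Mfap2 by -0.39 (SE 0.0736, adjusted p 0.00565), Sparc by -0.31 (SE 0.0806, adjusted p 0.0389) and Pdgfrb by -0.41 (SE 0.108, adjusted p 0.0408). The calls of Kcnj8 and Mfap2 held in every alternative that kept them, and those of Sparc and Pdgfrb ended in 14 of 24 and 13 of 23 alternatives. Without floxed high-fat diet replicate 3 Sparc differed by -0.26 (adjusted p 0.0587) and Pdgfrb by -0.33 (adjusted p 0.0725). Both calls also ended without floxed 14-week chow replicate 2 (adjusted p 0.0785 for Sparc and 0.0855 for Pdgfrb) and without floxed 8-week replicate 2 (0.0819 for Sparc and 0.0828 for Pdgfrb). The average joins unlike values, since the Sparc difference was -0.80 on high-fat diet, -0.50 on chow at 14 weeks and 0.36 at 8 weeks. In the same order Mfap2 differed by 0.16, -0.14 and -1.18, and Kcnj8 by -1.45, -0.32 and -0.07. The Mfap2 calls at 8 weeks, for age in deleted islets, for the age interaction and for this mean share the deleted 8-week libraries. The collagens named above were not called, with Col4a1 at -0.26 (adjusted p 0.0838), Col6a1 at -0.38 (adjusted p 0.149), Col4a2 at -0.21 (adjusted p 0.239), Col3a1 at -0.44 (adjusted p 0.309) and Col1a1 at -0.32 (adjusted p 0.475). Pdgfra, below the limit, was at -0.07.

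**Figure D3:**
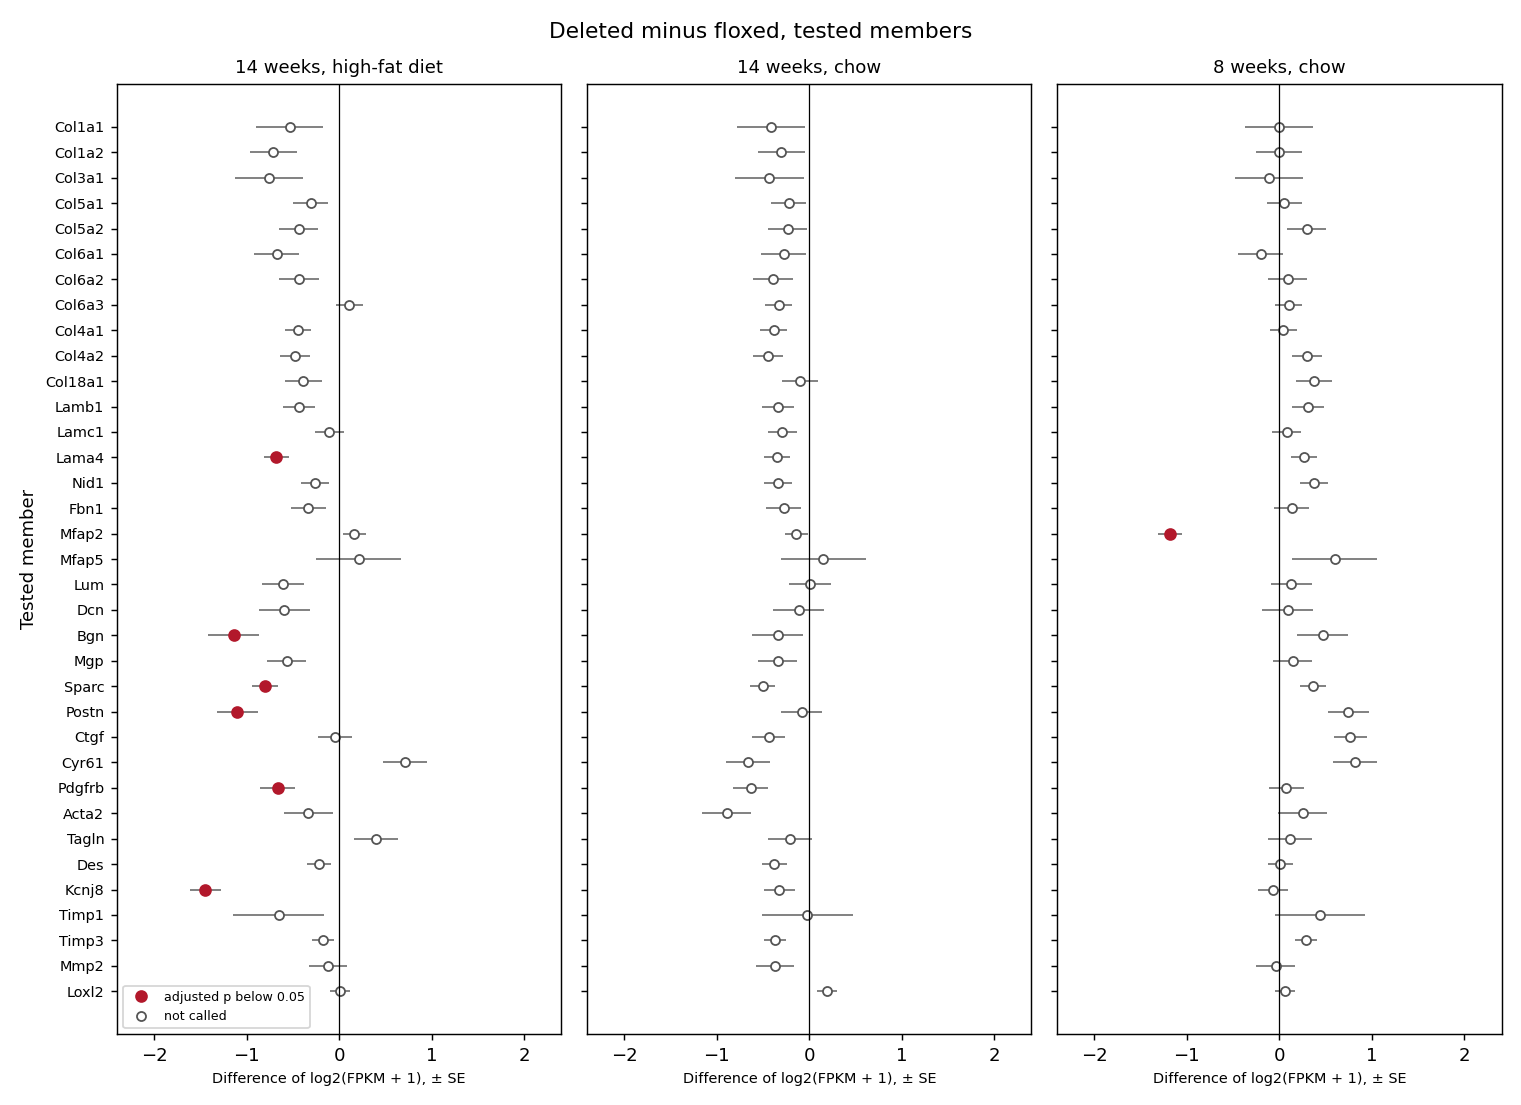
Points give the difference of log2(FPKM + 1), deleted minus floxed, for each of the 35 tested members with its standard error in the 3 conditions, filled where the adjusted p was below 0.05. Most members lie below 0 at 14 weeks on both diets, and at 8 weeks Mfap2 lies far below 0 while Ctgf, Cyr61 and Postn lie above it.

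Ages were compared on chow within each genotype. In floxed islets 6 of 44 members rose at 14 weeks and 0 fell, where 3.20% of all tested genes were called higher. The median difference was 0.43, against -0.02 over all tested genes, 42 of 44 differences were above 0, and 25 members had all 3 libraries of 14 weeks above all 3 of 8 weeks, against 11.4% of all tested genes. In deleted islets a single member rose and 0 fell, where 2.35% of all tested genes were called higher. There the median was -0.01, the same as over all tested genes, and 1 member was apart upwards, against 9.93% of all tested genes. The 14-week chow libraries enter the diet comparisons too, so a high value there raises the age difference and lowers the diet difference.

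In floxed islets the 6 members that rose were Cyr61, Ctgf, Col4a2, Timp3, Postn and Acta2. Cyr61 had 12.7, 12.2 and 8.17 FPKM at 14 weeks, against 2.58, 4.29 and 3.38 FPKM at 8 weeks, with no overlap (difference 1.44, SE 0.237, adjusted p 0.00228). Ctgf had 23.2, 33.8 and 21.5 FPKM at 14 weeks, against 10.03, 15.9 and 12.002 FPKM at 8 weeks (difference 0.99, adjusted p 0.00426). Col4a2 had 5.85, 6.65 and 4.87 FPKM at 14 weeks, against 1.76, 3.57 and 3.19 FPKM at 8 weeks (difference 0.85, adjusted p 0.00492). Its partner Col4a1 had 15.6, 15.2 and 13.6 FPKM at 14 weeks, against 9.48, 11.9 and 11.5 FPKM at 8 weeks, which did not overlap but was not called (difference 0.40, adjusted p 0.127). Timp3 rose by 0.61 (adjusted p 0.00567), Postn by 0.90 (adjusted p 0.0239) and Acta2 by 1.05 (adjusted p 0.0329). The Postn and Acta2 calls ended without 14-week replicate 2, where both were highest, and without 14-week replicate 3 or any 1 of the 8-week replicates. Without 14-week replicate 2 Acta2 differed by 0.85 (adjusted p 0.160) and Postn by 0.71 (adjusted p 0.148). Without 8-week replicate 2 they differed by 1.14 (adjusted p 0.0561) for Acta2 and 0.94 (adjusted p 0.0528) for Postn. Col1a1 differed by 0.78 (adjusted p 0.280), Col3a1 by 0.74 (adjusted p 0.322), Sparc by 0.48 (adjusted p 0.0654), Pdgfrb by 0.54 (adjusted p 0.117), Col6a1 by 0.39 (adjusted p 0.447), Mfap2 by 0.11 (adjusted p 0.718) and Pdgfra by 0.08.

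In deleted islets Mfap2 was the member that rose, with 6.61, 4.66 and 5.91 FPKM at 14 weeks, against 2.51, 1.99 and 1.57 FPKM at 8 weeks. The ages were apart, at 283% of the 8-week mean (difference 1.15, SE 0.127, adjusted p 4.12e-05). Cyr61 had 7.31, 6.93 and 5.42 FPKM at 14 weeks, against 5.96, 9.01 and 5.54 FPKM at 8 weeks (difference -0.04, adjusted p 0.969). Sparc had 52.4, 44.2 and 35.1 FPKM at 14 weeks, against 51.6, 61.2 and 59.0 FPKM at 8 weeks (difference -0.39, adjusted p 0.167). Mgp had 108, 89.5 and 56.4 FPKM at 14 weeks, against 142, 117 and 103 FPKM at 8 weeks (difference -0.54, not called). Col1a1 differed by 0.37 (adjusted p 0.694), Col3a1 by 0.42 (adjusted p 0.655), Col4a1 by -0.02 (adjusted p 0.964), Col4a2 by 0.10 (adjusted p 0.831), Col6a1 by 0.31 (adjusted p 0.598), Pdgfrb by -0.17 (adjusted p 0.736) and Pdgfra by 0.02.

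Whether the genotypes differed in their response was tested as an interaction, the difference in deleted islets minus that in floxed islets. For the diet 2 of 44 members were called, where 3.53% of all tested genes were called. Kcnj8 had an interaction of -1.12 (SE 0.235, adjusted p 0.00959), from a diet difference of -0.71 in deleted and 0.41 in floxed islets, and this call held in every alternative. Cyr61 had an interaction of 1.37 (SE 0.335, adjusted p 0.0321), from -0.16 in deleted and -1.54 in floxed islets. The Cyr61 call ended in 9 of 25 alternatives, among them those without 1 of several high-fat diet or chow libraries of either genotype, and without floxed chow replicate 2 it was 1.29 (adjusted p 0.0834). Postn had -1.02 (adjusted p 0.0839). The interaction was -0.12 for Col1a1 (adjusted p 0.943), -0.33 for Col3a1 (adjusted p 0.817), -0.06 for Col4a1 (adjusted p 0.920), -0.03 for Col4a2 (adjusted p 0.967), -0.40 for Col6a1 (adjusted p 0.621), -0.29 for Sparc (adjusted p 0.495), 0.30 for Mfap2 (adjusted p 0.427), -0.03 for Pdgfrb (adjusted p 0.972) and 0.08 for Pdgfra.

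For age 1 of 44 members was called, where 0.196% of all tested genes were called. This was Mfap2, with an interaction of 1.05 (SE 0.180, adjusted p 0.0168), and the call ended in 6 of 24 alternatives, 4 of which left out a single library (deleted 14-week chow replicate 3, deleted 8-week replicate 3, floxed 14-week chow replicate 2 or floxed 8-week replicate 1). Without floxed 14-week chow replicate 2 it was 1.02 (adjusted p 0.0705). The other members pointed the opposite way. In 42 of 44 the interaction was below 0, with a median of -0.40 against 0.01 over all tested genes. Ctgf had -1.21 (adjusted p 0.0666), Sparc -0.87 (adjusted p 0.0896), Cyr61 -1.48 (adjusted p 0.0919), Col4a2 -0.74 (adjusted p 0.224), Pdgfrb -0.71 (adjusted p 0.372), Col4a1 -0.43 (adjusted p 0.548), Col1a1 -0.41 (adjusted p 0.900), Col3a1 -0.32 (adjusted p 0.926), Col6a1 -0.08 (adjusted p 0.975) and Pdgfra -0.07. Without floxed high-fat diet replicate 3, a library that enters this contrast only through the shared estimate of the spread, 4 members were called.

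**Figure D4:**
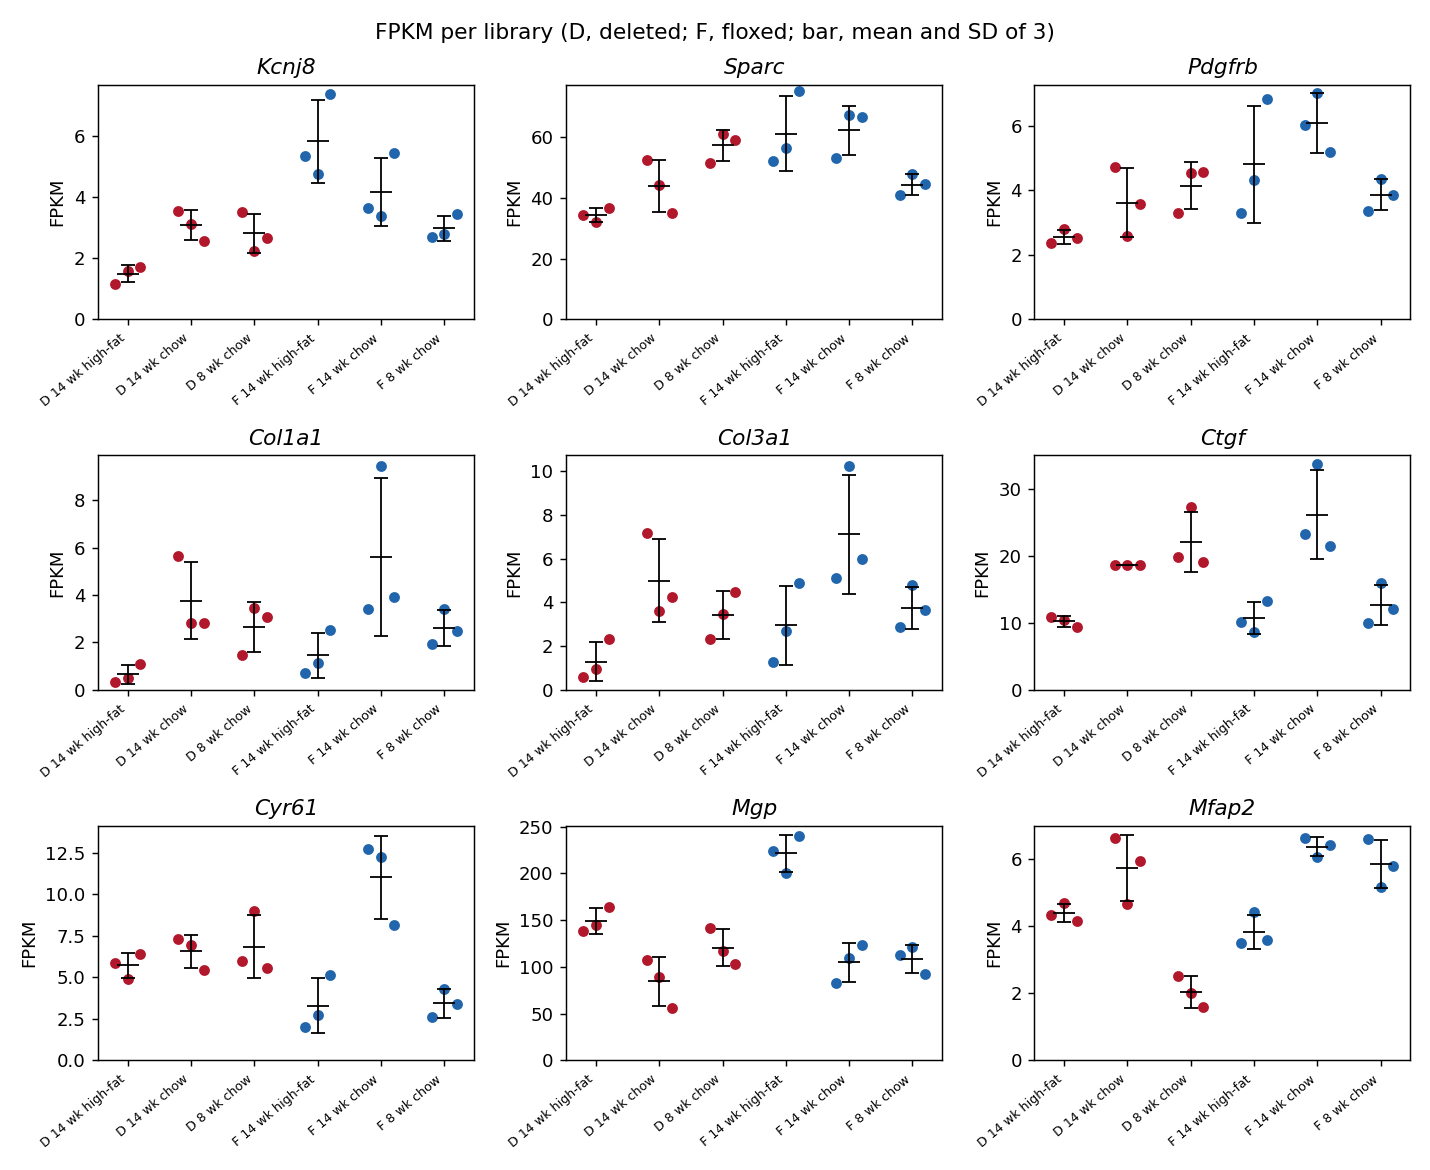
Points give FPKM in each library for 9 members, with the mean and SD of the 3 libraries of each group, deleted in red and floxed in blue, on axes that start at 0. Kcnj8 is lowest in the deleted high-fat diet group (1.17 to 1.71 FPKM), Mfap2 is lowest in the deleted 8-week group (1.57 to 2.51 FPKM), Mgp is highest in the floxed high-fat diet group (201 to 240.0 FPKM), and Cyr61 is highest in the floxed 14-week chow group (8.17 to 12.7 FPKM).

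The 126 other genes of matrix and matrix signalling, in 7 lists, held 70 tested genes. On high-fat diet 18 of them were lower and 2 higher in deleted islets, and 22 were lower and 4 higher in floxed islets. Of all tested genes, 5.91% were called lower and 9.05% higher in deleted islets. In floxed islets 13.5% were called lower and 15.0% higher. Among the other interstitial matrix genes, Tnc (tenascin C) differed by -1.56 (adjusted p 0.000169) in deleted and -1.62 (adjusted p 4.85e-05) in floxed islets, and Fbln2 (fibulin 2) by -1.07 (adjusted p 0.00376) and -1.20 (adjusted p 0.000744) in the same order. Among the matrix receptors, Itga5, the integrin alpha 5 chain of the fibronectin receptor, differed by -1.05 (adjusted p 0.000262) in deleted and -1.14 (adjusted p 4.86e-05) in floxed islets. The protease gene Adamts1 differed by -0.97 (adjusted p 0.00125) and -0.99 (adjusted p 0.000485), and the basement membrane collagen gene Col8a1 by -0.79 (adjusted p 0.00624) and -0.90 (adjusted p 0.00115). Of the collagen synthesis genes, Serpinh1, the collagen chaperone HSP47, fell in deleted islets (difference -1.05, adjusted p 0.0115). In the TGF-beta list the receptor gene Tgfbr1 differed by -0.37 (adjusted p 0.00360) in deleted and -0.68 (adjusted p 5.15e-06) in floxed islets, and Smad4, the shared signal transducer, by 1.61 (adjusted p 0.00221) in deleted islets.

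Between genotypes on high-fat diet 8 of the 70 were lower and 4 higher in deleted islets, where 6.02% of all tested genes were called lower. Sparcl1, a close relative of Sparc expressed by vascular cells, had the smallest p-value (difference -1.42, SE 0.150, adjusted p 5.28e-06). P4ha1 and P4ha2, subunits of the prolyl hydroxylases that make collagen helices stable, differed by -0.83 (adjusted p 0.000119) and -0.63 (adjusted p 0.00202), and Itga6, a laminin receptor chain, by -0.46 (adjusted p 0.00465). Thbs1, thrombospondin 1, was higher (difference 0.45, adjusted p 0.0237). On chow 0 of the 70 were called at 14 weeks, and at 8 weeks 2 were higher (Thbs1 at 0.60, adjusted p 0.0341, and Tgfbi, a TGF-beta induced matrix protein, at 0.53, adjusted p 0.0175) and 1 was lower. Of all tested genes, 0.114% were called at 14 weeks, and 0.368% were called lower at 8 weeks. At 14 against 8 weeks 1 of the 70 rose and 1 fell in deleted islets, and 12 rose and 0 fell in floxed islets, among them Tgfbi (difference 1.08, adjusted p 2.87e-06), Thbs1 (0.84, adjusted p 0.000610) and Tnc (1.17, adjusted p 0.00567). Of all tested genes, 2.35% were called higher with age in deleted and 3.20% in floxed islets. None of the 3 tested PDGF ligand genes was called in any comparison by limma.

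Markers of other cell types moved with these comparisons, and their part in the members' differences was not tested. On high-fat diet 6.02% of all tested genes were called lower in deleted than in floxed islets. Of 13 endothelial markers, 12 were tested. Of these 8 were lower in deleted islets on high-fat diet, among them Tie1, Cd34 and Cdh5, with 0 higher. Their summed level was 145 to 153 FPKM in deleted and 181 to 227 FPKM in floxed islets on high-fat diet, 165 to 187 FPKM in deleted and 217 to 230 FPKM in floxed islets on chow at 14 weeks, and 187 to 211 FPKM in deleted and 143 to 187 FPKM in floxed islets at 8 weeks. The summed level of the members other than Mgp and Sparc was 81.2 to 92.6 FPKM in deleted and 101 to 163 FPKM in floxed islets on high-fat diet, 126 to 180.3 FPKM in deleted and 164 to 239 FPKM in floxed islets on chow at 14 weeks, and 125 to 159 FPKM in deleted and 99.0 to 129.7 FPKM in floxed islets at 8 weeks. Mgp and Sparc, the most abundant members, were left out of this sum because they make up a large share of it. Over all 44 members the sum was 254 to 294 FPKM in deleted and 362 to 478 FPKM in floxed islets on high-fat diet, 217 to 341 FPKM in deleted and 299.5 to 415 FPKM in floxed islets on chow at 14 weeks, and 302 to 336 FPKM in deleted and 249 to 298 FPKM in floxed islets at 8 weeks. With Mgp, which was higher on high-fat diet, in the sum, the diets overlapped in both genotypes. In the endothelial sum and in both sums of members the deleted libraries lay below the floxed ones at 14 weeks on high-fat diet; on chow this held for the endothelial sum while both sums of the members overlapped.

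Macrophage and exocrine markers moved with diet and age. Of 10 tested macrophage markers, 2 in deleted and 8 in floxed islets were lower on high-fat diet. Of all tested genes, 5.91% in deleted and 13.5% in floxed islets were called lower. At 14 against 8 weeks 2 macrophage markers rose in deleted and 9 in floxed islets, where 2.35% and 3.20% of all tested genes were called higher. Hormone-cell markers moved the other way on high-fat diet in deleted islets, where 9 of 10 beta, 3 of 6 tested alpha and 2 of 5 delta and PP markers were higher than on chow and 0 were lower. In floxed islets 4 beta markers were higher and 1 lower, 0 alpha markers were higher and 2 lower, and 0 delta and PP markers were higher and 3 lower. Of all tested genes, 9.05% were called higher on high-fat diet in deleted and 15.0% in floxed islets. Between genotypes on high-fat diet 3 beta, 4 alpha and 3 delta and PP markers were higher in deleted islets and 0 were lower. At 8 weeks on chow 2 alpha markers were lower and 1 delta and PP marker was higher in deleted islets, with 0 beta markers called. Means there were 39704 FPKM for Ppy in deleted against 9830 FPKM in floxed islets, and 19546 against 30383 FPKM for Gcg. On chow at 14 weeks 0 of the hormone-cell markers were called between genotypes. The 12 acinar markers, genes of the digestive enzymes of the exocrine pancreas, summed to 106 to 225 FPKM in deleted and 22.9 to 325 FPKM in floxed islets on high-fat diet, 1632 to 2942 FPKM in deleted and 1110.0 to 5387 FPKM in floxed islets on chow at 14 weeks, and 46.6 to 1456 FPKM in deleted and 97.4 to 250.8 FPKM in floxed islets at 8 weeks. On high-fat diet 9 of the 12 were lower in deleted and all 12 in floxed islets, 4 rose with age in floxed islets, and none was called by limma between genotypes. In each genotype every 14-week chow library was above every library it was set against. The defining mesothelial markers Upk3b, Lrrn4, Wt1 and Upk1b were at 0 in 13 to 16 of 18 libraries. Msln, which encodes mesothelin and is the fifth marker of that list, was present in all 18 and on high-fat diet had a mean of 128.7 FPKM in deleted islets, against 80.6 FPKM in floxed islets (difference 0.67, adjusted p 3.28e-05), with a diet interaction of 0.44 (adjusted p 0.0443). Lrat, a marker of resting stellate cells, was at 0 in all 18. It belongs to a list of 12 further fibroblast and stellate markers. These summed to 143 to 152 FPKM in deleted and 125 to 134 FPKM in floxed islets on high-fat diet, without overlap. The most abundant were Gsn (mean of 96.3 FPKM in deleted and 87.4 FPKM in floxed islets) and Dpp4 (47.0 and 37.8 FPKM). Of the 6 that were tested 1 was called higher and 1 lower in deleted islets. The 10 further pericyte and smooth muscle markers summed to 7.68 to 10.6 FPKM in deleted and 14.3 to 18.03 FPKM in floxed islets on high-fat diet, without overlap. Mcam and Anpep were the most abundant of the 10, and Anpep had a mean of 3.69 FPKM in deleted and 4.17 FPKM in floxed islets. Of the 4 that were tested 1 was called lower in deleted islets, Mcam, with a mean of 4.02 FPKM in deleted and 7.96 FPKM in floxed islets (difference -0.83, adjusted p 0.000383). The other 6 (Myh11, Cnn1, Notch3, Abcc9, Higd1b and Lmod1) stayed below the low-value limit, and Myh11, a defining gene of smooth muscle, had a mean of 0.254 FPKM in deleted islets, against 0.227 FPKM in floxed islets.

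**Figure D5:**
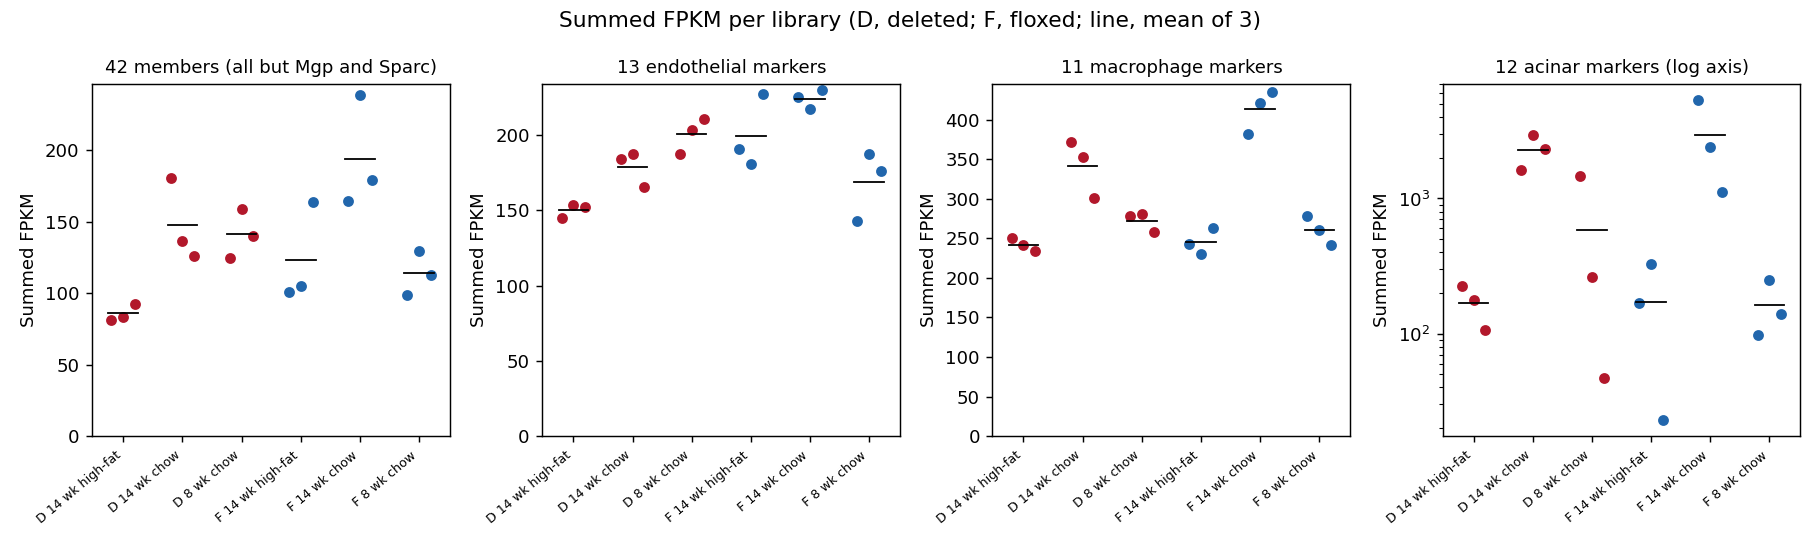
Points give the summed FPKM of a gene list in each library, with a line at the mean of the 3 libraries of a group, for the 42 members other than Mgp and Sparc and for endothelial, macrophage and acinar markers, the last on a log axis. The deleted high-fat diet group has the lowest sums of these 42 members (81.2 to 92.6 FPKM), which was not so over all 44, and the acinar sums are highest in the 14-week chow groups of both genotypes.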

How the data were processed

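Per the labels' protocols, a miRNeasy kit, SMART-Seq HT and Nextera were used for RNA, cDNA and libraries; this preparation carries no strand information. For each library the authors deposited gene-level FPKM values. The submitters' processing notes name Cufflinks 2.2.1, TopHat2 2.0.13, SAMtools 0.1.19, Bowtie2 2.2.3 and mm10; roles and annotation are not stated in what was used here. The unit, unnamed in the labels, was taken from Cufflinks and the values. Median ratios to the geometric mean of all libraries were 1.0037 to 1.0079, so the deposited values appear already scaled.

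A gene was kept if 3 or more of 18 libraries reached 1 FPKM. Then log2(FPKM + 1) was fitted with limma 3.58.1 in R 4.3.3, with 6 group means and a robust variance trend, and p-values were adjusted over 12234 genes by the Benjamini-Hochberg method. In simulated data on these genes, 64% of changes of 0.5 and 98% of changes of 1 on the log2 scale were recovered for genotype on high-fat diet. In that run 7 unchanged genes were called. The changes were placed only in genes above a minimum mean level, so the recovery for members with low values is not known. Noise was drawn separately for each gene, whereas in several groups 1 library held the highest value of most members. The recovery under such shared shifts was not tested. Replicate numbers were not used as pairs in the main fit. Of 45 same-number correlations of deviations 8 exceeded 0.1, and whether the numbers mark a shared batch was not tested. Alternatives were a pseudocount of 0.1, other filters, rescaling, quantile normalization, a replicate block, fits of the compared groups alone, and leaving out each library.

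The members and lists were chosen with earlier results of these data known. Named were every called member, the 3 smallest p-values where fewer than 3 were called, 9 fixed genes (Col1a1, Col3a1, Col4a1, Col4a2, Col6a1, Sparc, Mfap2, Pdgfrb and Pdgfra), and up to 3 called genes of each other matrix list, of which the text gives a selection.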

Additional observations from a re-analysis of the deposited data

Results flagged for a closer look

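For 3 members an interaction of genotype with diet or age was called in limma. For diet it was 2 of 44 members, where 3.53% of all tested genes were called. For age it was 1 of 44, where 0.196% were called. The diet difference of Kcnj8 was 1.12 lower in deleted than in floxed islets (interaction -1.12, adjusted p 0.00959). The diet difference of Cyr61 was 1.37 higher in deleted than in floxed islets (adjusted p 0.0321). The age difference of Mfap2 was 1.05 higher in deleted than in floxed islets (adjusted p 0.0168). The Kcnj8 call held in every alternative, that of Cyr61 ended in 9 of 25 and that of Mfap2 in 6 of 24.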

How the results depend on the processing

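Of 50 calls of a member in a comparison, 29 held in every alternative that could be run, and of 1213 alternative values 1081 stayed called, 132 were no longer called and 0 reversed; the causes were not tested. Median-ratio scaling ended 0 of 50 calls, quantile normalization 1, a pseudocount of 0.1 ended 2 and no filter 9. Fits of the compared groups alone ended 7 of 46. With a mean of at least 5 FPKM fewer members could be tested, and the members called were 0 at 8 weeks, 3 for genotype on high-fat diet, 1 for the mean of the conditions, 5 for the diet in deleted and 5 in floxed islets, 3 for age in floxed and 0 in deleted islets, 1 for the diet interaction and 0 for the age interaction. Fitting only the compared groups gave 10 for genotype on high-fat diet and 0 for the age interaction. With no filter there were 2 for the mean of the conditions, 1 for the diet interaction and 0 for the age interaction.

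Leaving out 1 library gave 1 to 2 called members at 8 weeks, 4 to 9 for genotype on high-fat diet, 2 to 5 for the mean of the conditions, 8 to 17 for the diet in deleted and 9 to 21 in floxed islets, 4 to 9 for age in floxed islets, 1 to 2 for the diet interaction and 0 to 4 for the age interaction.

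With the replicate number as a block, which the labels do not describe as a pairing, the counts were 1 at 8 weeks, 0 at 14 weeks on chow, 7 on high-fat diet, 3 for the mean of the conditions, 14 for the diet in deleted and 14 in floxed islets, 5 for age in floxed and 1 in deleted islets, 2 for the diet interaction and 1 for the age interaction; the correlation of same-number deviations lay between -0.159 and 0.232. A pseudocount of 0.1 moved low genes by more than 1.5 times, among them Lum on diet in deleted islets (-2.49), Col1a1 (-2.42) and Postn (-2.11). The depth of each library is unknown.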
